A study of Mus musculus with 4 samples.

Results

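The 39 Hox genes of the mouse were described across 4 stages of pancreas development. They were taken as every protein-coding gene of GENCODE M21 named Hox with a cluster letter from a to d and a number, and all 39 were among the 54532 genes listed. The series profiled wild-type (WT) C57BL/6 mouse fetuses by RNA sequencing of total RNA, with the first sample from E11.5 (E, embryonic day), the last from E18.5 and samples of E13.5 and E15.5 between, 1 per stage and none with a treatment. The samples were called fetal pancreas in the labels and pancreatic epithelium in the design text, and neither text used here says how the epithelium was isolated or how many embryos were pooled. For every gene the authors deposited 1 mean FPKM value per stage, a read count corrected for transcript length and library size. Behind each mean the values held whole reads of 2 libraries, so that the reads of every Hox gene could be recovered in 8 libraries. Levels are FPKM scaled to a common median across stages, given as mean ± SD over these recovered libraries (n = 2). Whether they stem from different embryos is not stated, so their spread may be technical.

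Hox genes encode homeodomain transcription factors that give cells their position along the head-to-tail axis. In mammals they lie in 4 clusters, and genes at the 3′ end of a cluster (low numbers) are switched on earlier and reach further towards the head than genes at the 5′ end (high numbers), a rule known as collinearity. Genes with the same number in different clusters are paralogs and act in overlapping ways. The clusters are silent in the forebrain and midbrain, and in the trunk they are active in the neural tube, the paraxial and lateral plate mesoderm and their derivatives. In the mouse pancreas the Hox6 paralogs are known from the mesenchyme around the epithelium, where they are needed for endocrine cells to differentiate.

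The Hoxa cluster holds 11 of the genes on chromosome 6, and the Hoxb cluster holds 10 on chromosome 11 (96194316 to 96368256, mm10). The Hoxc cluster has 9 on chromosome 15 (102921103 to 103036852) and the Hoxd cluster 9 on chromosome 2 (74668310 to 74765142). Promoter sequences of 250 bases before to 50 bases after the start were found for 22 of the 39 genes in a RefSeq table (build GRCm38.p6). The 3 below belong to the most abundant Hox genes with an entry, and they are shown because these genes carry much of the signal at E11.5. They lie at chr6:52204538-52204837 (minus strand) for Hoxa5, chr6:52164782-52165081 (minus strand) for Hoxa2 and chr15:103034145-103034444 (plus strand) for Hoxc4. The Hoxc4 start lies 15461 bases from the 5′ end of the GENCODE gene, which includes a longer transcript. Capitals mark matches on either strand to the core promoter motif TATAAA, the proximal promoter motif CCAAT, the half-site of retinoic acid and other nuclear receptors AGGTCA, and the site bound jointly by Hox and Pbx proteins, TGATNNAT, and no matches overlap in these sequences.
Hoxa5: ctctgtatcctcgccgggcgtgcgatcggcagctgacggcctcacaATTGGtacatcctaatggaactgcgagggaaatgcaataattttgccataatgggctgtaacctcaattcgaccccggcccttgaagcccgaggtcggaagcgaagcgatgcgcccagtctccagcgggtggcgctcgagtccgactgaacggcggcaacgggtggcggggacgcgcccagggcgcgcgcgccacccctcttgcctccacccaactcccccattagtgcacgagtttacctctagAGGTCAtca
Hoxa2: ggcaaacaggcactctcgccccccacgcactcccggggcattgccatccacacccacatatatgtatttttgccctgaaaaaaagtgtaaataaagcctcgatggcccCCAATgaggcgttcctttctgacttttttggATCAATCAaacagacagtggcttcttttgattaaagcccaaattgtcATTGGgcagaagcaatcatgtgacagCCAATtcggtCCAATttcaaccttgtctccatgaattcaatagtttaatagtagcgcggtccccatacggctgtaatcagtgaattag
Hoxc4: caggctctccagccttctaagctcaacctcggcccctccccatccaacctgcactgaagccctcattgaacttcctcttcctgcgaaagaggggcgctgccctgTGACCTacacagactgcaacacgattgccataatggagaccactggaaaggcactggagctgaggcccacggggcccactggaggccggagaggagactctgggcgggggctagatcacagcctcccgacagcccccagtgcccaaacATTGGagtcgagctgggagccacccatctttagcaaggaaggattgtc

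AGGTCA occurred in 7 of the 22 Hox promoters (31.8%), the Hoxa5 and Hoxc4 ones among them, and in 16.3% of all 32851 promoters of the table. CCAAT occurred in 14 (63.6%) against 37.4%, TGATNNAT in 3 (13.6%) against 8.85%, and TATAAA in 3 (13.6%) against 13.6%. The TGATNNAT matches were in Hoxa2, Hoxb1 and Hoxb8. The median GC content of the Hox promoters was 56.8%, against 52.7% over all promoters. These letter matches are descriptions of the sequence and not binding sites.

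At E11.5 all 4 Hox clusters were transcribed, and at the later stages almost none of this signal was present. The summed level of the 39 genes was 89.5 ± 1.87 FPKM at E11.5, and in the order of the later stages 1.21 ± 0.207, 1.42 ± 0.552 and 1.93 ± 0.528. The sum was therefore 73.9-fold, 63.2-fold and 46.3-fold lower at the later stages. In reads, the 2 libraries of E11.5 held 3747 and 3757 Hox reads, while the 6 later libraries held 285 together. In bulk samples, fewer cells of a Hox-expressing type and less Hox RNA per cell cannot be told apart.

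Markers of cell content differed between E11.5 and the later stages along with the Hox level. Pdx1, the factor required for pancreas formation, was at 2.93 FPKM at E11.5 and at 79.03, 60.6 and 77.4 later, and the acinar factor Ptf1a was at 0.603 and then 30.4, 119 and 22.2. The summed level of 15 pancreatic epithelial markers was 1259 at E11.5 and 3434, 4316 and 5078 later. The E11.5 sample also held markers of tissues that no label names. The otic vesicle list (11 genes, all found) summed to 1382 FPKM at E11.5 and to 3.40, 1.27 and 4.95 later, led by the otoconial protein gene Oc90. At E13.5 the otic genes Oc90, Otol1, Pax2 and Pax8 were listed at 0. The cranial mesenchyme list (15 genes) summed to 322 and then 3.06, 2.68 and 2.87, and the list of neurons and neural crest (15 genes) to 1416 and then 66.0, 45.2 and 178. Mesenchyme genes (21) summed to 324, 57.2, 56.0 and 99.7, and the foregut mesenchyme list (11) to 171, 72.6, 72.5 and 127. Erythroid genes were at 9801, 266, 295 and 640, mesothelial genes at 113, 78.4, 83.2 and 220, leukocyte genes at 93.3, 20.5, 195 and 123, endothelial genes at 1.49, 0.713, 0.857 and 1.22, and gut genes at 28.2, 10.7, 7.33 and 5.92. By a rule of size that takes a difference of at least 2-fold on the scale log2(FPKM + 1) with 5 FPKM reached at either stage, 5.73% of the 14841 genes that reached 1 FPKM at some stage were lower at E13.5 than at E11.5 and 5.77% higher. By it 11 of 11 erythroid, 13 of 21 mesenchyme, 9 of 15 cranial, 8 of 11 otic and 8 of 15 neural genes were lower and none higher. Of the foregut mesenchyme genes 5 were lower and 2 higher, of 10 leukocyte genes 4 were lower and 1 higher, and of 15 epithelial genes 13 were higher and none lower. Of 7 mesothelial and 10 gut genes 2 each were lower and none higher, and none of 10 endothelial genes passed. The endothelial genes could not pass, since even their sum lay under 5 FPKM. Otx2, a forebrain and midbrain factor in whose territory Hox genes are silent, was at 38.8 FPKM at E11.5 and listed at 0 at all later stages. It was counted in the cranial mesenchyme list, so that sum may not be from mesenchyme alone. The cranial and otic lists also share members, so their sums are not independent. The part of this cell content in the Hox differences was not tested.

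**Figure D1:**
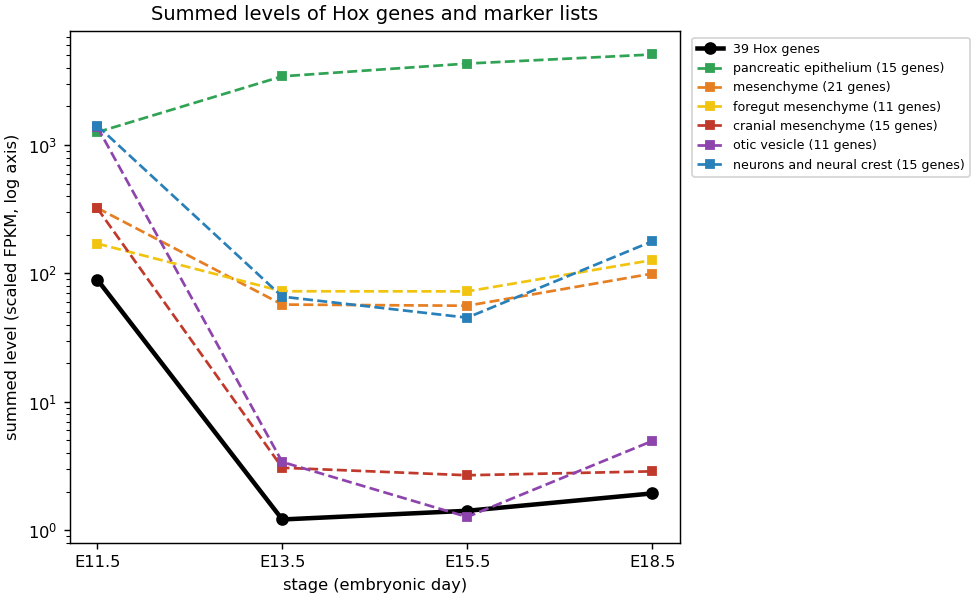
Summed level (scaled FPKM, log axis) of the 39 Hox genes (black) and of 6 marker lists (dashed) at each stage, 1 point per stage. The Hox sum goes from 89.5 FPKM at E11.5 to between 1.21 and 1.93 later, the otic and cranial lists are also under 5 FPKM later, and the epithelial list goes from 1259 to 5078.

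Within E11.5, the Hoxa cluster gave 43.2% of the summed Hox level, Hoxb 35.7%, Hoxc 18.4% and Hoxd 2.73%. By position along the axis, the central paralogs (positions 4 to 8) gave 70.8%, the anterior ones (1 to 3) 21.1% and the posterior ones (9 to 13) 8.10%. The single largest paralog group was position 5 with 32.3% (Hoxa5, Hoxb5 and Hoxc5), followed by position 2 with 16.5%, nearly all of it Hoxa2, and position 6 with 15.04%. Positions 10 to 13 gave 1.09%, 0.274%, 0.146% and 0.460%. The level did not fall steadily from the 3′ to the 5′ end of a cluster: in Hoxa, position 2 and position 5 stood above positions 3, 4 and 6, and in Hoxb the highest positions were 5 and 6.

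**Figure D2:**
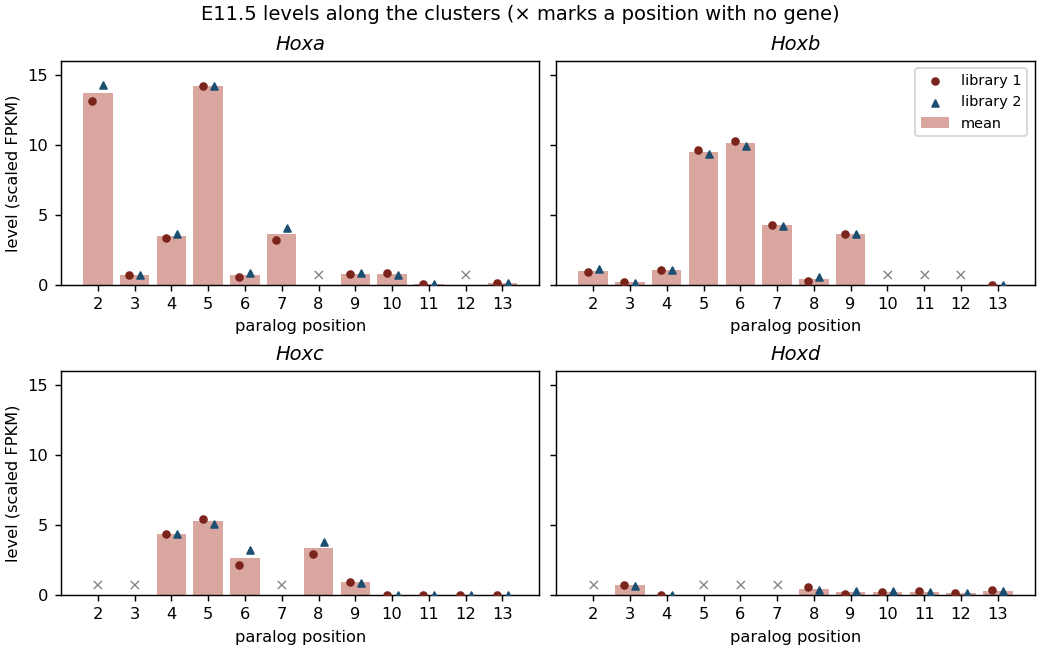
Level at E11.5 (scaled FPKM) by paralog position, from 2 to 13, in each cluster. Bars are the mean of the recovered libraries and points the libraries, and a grey cross marks a position at which the cluster has no gene. Hoxa2 and Hoxa5 stand highest at 13.72 and 14.2 FPKM, and no Hoxd gene reaches 1 FPKM.

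Of the 39 genes, 14 were at 1 FPKM or more at E11.5, 19 had reads but stayed below 1 FPKM, and 6 were listed at 0 in every stage. No Hox gene reached 1 FPKM at any later stage. Just inside that limit stood Hoxb4 at 1.05 and just outside it Hoxb2 at 0.998. In order of level, Hoxa5 and Hoxa2 overlapped between libraries, Hoxb6 lay above Hoxb5 in both, and Hoxc5, Hoxc4 and Hoxb7 followed without overlap. The next 4, Hoxb9, Hoxa7, Hoxa4 and Hoxc8, overlapped in their libraries and cannot be ranked, and Hoxc6 overlapped with Hoxc8 and with Hoxb1.

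**Figure D3:**
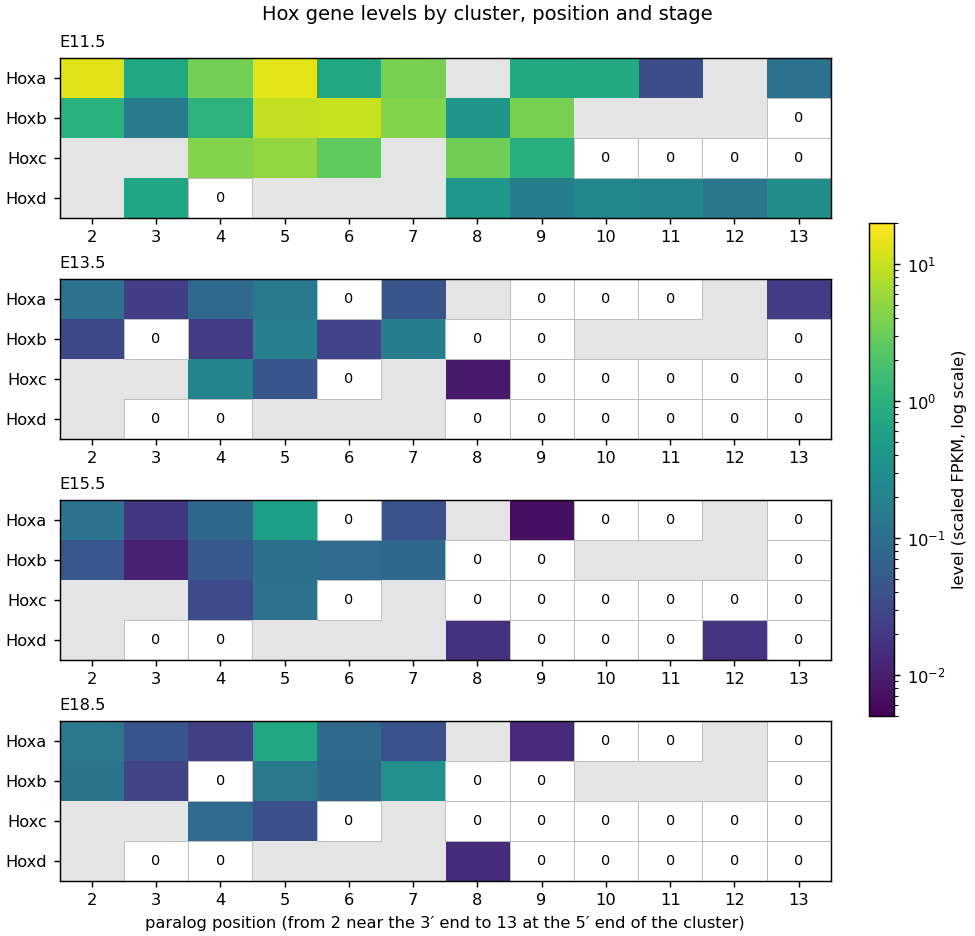
Level of the Hox genes (scaled FPKM, logarithmic colour scale) by cluster (rows) and paralog position from 2 to 13 (columns) at the 4 stages. Grey marks positions with no gene and a white 0 marks genes with no reads in both libraries. Colour fills most positions at E11.5, and the later panels are dark or at 0, with the posterior positions 10 to 13 almost free of reads.

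At E13.5, the stage next to E11.5, the Hox genes were compared first. By the rule of size, 5 of the 39 genes were lower and none was higher. These were Hoxa5, Hoxa2, Hoxb6, Hoxb5 and Hoxc5, the 5 genes at or above 5 FPKM at E11.5. Over the 14841 genes, 5.73% were lower and 5.77% higher by this rule. The 14 Hox genes tested by limma on the recovered libraries all fell at E13.5, where 37.2% of 13064 genes fell. However, they entered the test through their E11.5 level alone and so had to be lower later. The limma adjusted p-values given below for these genes at E13.5 carry the same limit and are no separate support. With no filter on low values 33 Hox genes were tested and 31 fell, against 23.9% of 28821 genes, and the other 2, Hoxa11 and Hoxd9, had 3 and 13 reads at E11.5. Of these 33 genes, 13 had reads at E11.5 only, so in this test too they could only be lower. The median log2 difference over all 39 genes was -0.74, against -0.03 over all genes at 1 FPKM or more. These sets are unlike, since only 14 of the 39 Hox genes reached 1 FPKM at any stage. The same holds for the shares by size. All 33 genes with reads at E11.5 had both E11.5 libraries above all 6 later ones, an arrangement found for 23.9% of the 28821 genes recovered in all libraries. For 13 of them there were no later reads at all. The share of all genes with that pattern was not computed, and Hoxa11 and Hoxd9, with their few E11.5 reads, are among the 13.

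Among the anterior genes, Hoxa2 carried the signal. Hoxa2, which patterns the second branchial arch and the hindbrain (ENSMUSG00000014704, chromosome 6, 52162417 to 52164831), was at 13.72 ± 0.801 FPKM at E11.5 and, in the order of the later stages, at 0.109 ± 0.0126, 0.119 ± 0.0453 and 0.132 ± 0.0618. Its reads were 428 and 454 in the E11.5 libraries and 2 to 4 in each later library, so the groups were far apart. It was 126-fold lower at E13.5 (95% counting interval 60.9 to 314), which is -3.73 on the log2 scale (SE 0.0763, limma adjusted p = 1.79e-07). Of its exon bases, 15.04% also lie in a predicted gene on the same strand, Gm28308, to which reads could have been split.

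Hoxb1, a gene of the hindbrain and of the early neural plate, was at 1.85 ± 0.541 FPKM at E11.5 and at 0 in all later libraries, and was at least 51.4-fold lower at E13.5 (limma adjusted p = 6.41e-05). Its E11.5 libraries held 95 and 61 reads, which is more than 2 counting errors apart. The same held for Hoxa7, Hoxb8, Hoxc6 and Hoxc8 among the 28 Hox genes with at least 20 reads at E11.5. The hindbrain gene Hoxb2 was at 0.998 ± 0.151 FPKM at E11.5, with 57 and 69 reads, and at 0.0300, 0.0479 and 0.123 later. Hoxa3, needed for the thymus and parathyroid, was at 0.693, 0.0223, 0.0194 and 0.0455. The genes Hoxb3, Hoxd1 and Hoxd3 were between 0.155 and 0.672 FPKM at E11.5. Reads for Hoxb3 are uncertain, since 52.9% of its exon bases lie in the antisense gene Hoxb3os, and those for Hoxd3 too, since 62.3% of its exon bases lie in exons of other genes on the same strand, Hoxd4 among them. Hoxb2 has 27.3% of its exon bases in Hoxb3os, and Hoxa3 has 27.1% in exons of other genes, so their reads are also less certain.

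The central group held 11 of the 14 genes at 1 FPKM or more. Hoxa5, a gene of the lung and airway mesenchyme (ENSMUSG00000038253, chromosome 6, 52201754 to 52204587), was the most abundant Hox gene at 14.2 ± 0.0127 FPKM at E11.5, and stood at 0.143 ± 0.113, 0.558 ± 0.0880 and 0.728 ± 0.262 later, in stage order. The 95% counting interval of its E11.5 level was 13.3 to 15.1, so the small SD there overstates its precision. Hoxa5 was 99.3-fold lower at E13.5 than at E11.5 (interval 53.8 to 208), or -3.74 on the log2 scale (SE 0.122, limma adjusted p = 1.06e-06). Its paralog Hoxb5, which acts in the enteric neural crest, was at 9.48 ± 0.220, 0.184 ± 0.101, 0.106 ± 0.0319 and 0.140 ± 0.0401 FPKM, and was 51.6-fold lower at E13.5 (limma adjusted p = 4.34e-07). Hoxc5 was at 5.24 ± 0.279, 0.0457 ± 0.0167, 0.112 ± 0.0876 and 0.0379 ± 0.0177 and was 115-fold lower at E13.5 (limma adjusted p = 8.72e-07). The 3 paralogs of position 5 thus had their E11.5 libraries between 5.05 and 14.2 FPKM and all later libraries below 1.

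The Hox6 paralogs, known from the pancreatic mesenchyme, differed in level among themselves. Hoxb6, a gene of the lateral plate mesoderm, was at 10.1 ± 0.249 FPKM at E11.5 and at 0.0266 ± 0.0377, 0.0913 ± 0.129 and 0.0795 ± 0.000263 later. It had 370 and 349 reads in the E11.5 libraries and 2, 4 and 4 reads per later stage, so that its fold at E13.5, 379, has a wide counting interval of 105 to 3138 (limma adjusted p = 5.18e-07). The small SD of Hoxb6 at E18.5 overstates the precision, since the 95% counting interval of that level was 0.0217 to 0.204. Hoxc6 was at 2.65 ± 0.741 FPKM at E11.5, with 94 and 137 reads, and had no read later, which made it at least 76.4-fold lower at E13.5 (limma adjusted p = 2.99e-05). Hoxa6 was at 0.696 ± 0.190 FPKM at E11.5 and had 2 reads later, both in 1 library of E18.5.

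Of the position 4 genes, which act around the hindbrain and neck, Hoxc4 was at 4.35 ± 0.00342 FPKM at E11.5 and at 0.202 ± 0.0894, 0.0349 ± 0.0494 and 0.0912 ± 0.000301 later. It was 21.6-fold lower at E13.5 (interval 13.7 to 36.3, limma adjusted p = 1.61e-06). Its E18.5 level rests on 3 reads in each library (95% counting interval 0.0335 to 0.199), so the small SD there overstates its precision. The same holds for its E11.5 level, with an interval of 3.94 to 4.80. Hoxa4 was at 3.50 ± 0.205, 0.0864, 0.0806 and 0.0244 FPKM, and Hoxb4, which is also known from blood stem cells, at 1.05 ± 0.0129, 0.0217, 0.0501 and 0. All of these had their later libraries below every E11.5 library. Hoxd4 had no reads in any library, but 52.3% of its exon bases overlap Hoxd3 and other genes on the same strand, so its 0 is uncertain.

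Positions 7 and 8 mark the thoracic trunk. Hoxb7 was at 4.24 ± 0.0558, 0.164 ± 0.0397, 0.0832 ± 0.0465 and 0.329 ± 0.0347 FPKM in stage order, and was 25.9-fold lower at E13.5 (interval 13.4 to 57.3, which takes in that of Hoxc4, limma adjusted p = 9.57e-07). Hoxa7 was at 3.62 ± 0.590, 0.0467, 0.0405 and 0.0408 FPKM and was 77.6-fold lower at E13.5 (limma adjusted p = 6.20e-06), although 20.4% of its exon bases lie in the antisense Hoxaas3. Hoxc8, which acts in thoracic vertebrae and motor neurons, was at 3.34 ± 0.607 FPKM at E11.5 and had a single later read, at E13.5 (362-fold, interval 64.5 to 14320, limma adjusted p = 5.17e-06). Hoxb8 and Hoxd8 were at 0.400 and 0.421 FPKM at E11.5.

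The posterior genes were mostly low or unread. Hoxb9, a gene of the thoracic ribs and the mammary gland, was the exception at 3.62 ± 0.0306 FPKM, with 172 and 166 reads at E11.5 and none in the 6 later libraries, so that it was at least 112-fold lower at E13.5 (log2 difference -2.21, SE 0.0603, limma adjusted p = 5.36e-07). Hoxc9 was at 0.908 FPKM at E11.5, Hoxa9, a gene of blood progenitors, at 0.782 and Hoxa10 at 0.751. In the Hoxd cluster, positions 9 to 13 were between 0.130 and 0.300 FPKM at E11.5, with 12 to 32 reads each, and Hoxa13 and Hoxa11 were at 0.112 and 0.0361. Of the Hoxa11 exon bases, 35.0% lie in the antisense Hoxa11os. Hoxb13, Hoxc10, Hoxc11, Hoxc12 and Hoxc13, genes of the tail, hindlimb and hair or prostate, had no reads at any stage. At E11.5 the limit that 3 reads set lay between 0.0138 and 0.0948 FPKM over the 39 genes, so these genes were not detectable at this depth.

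**Figure D4:**
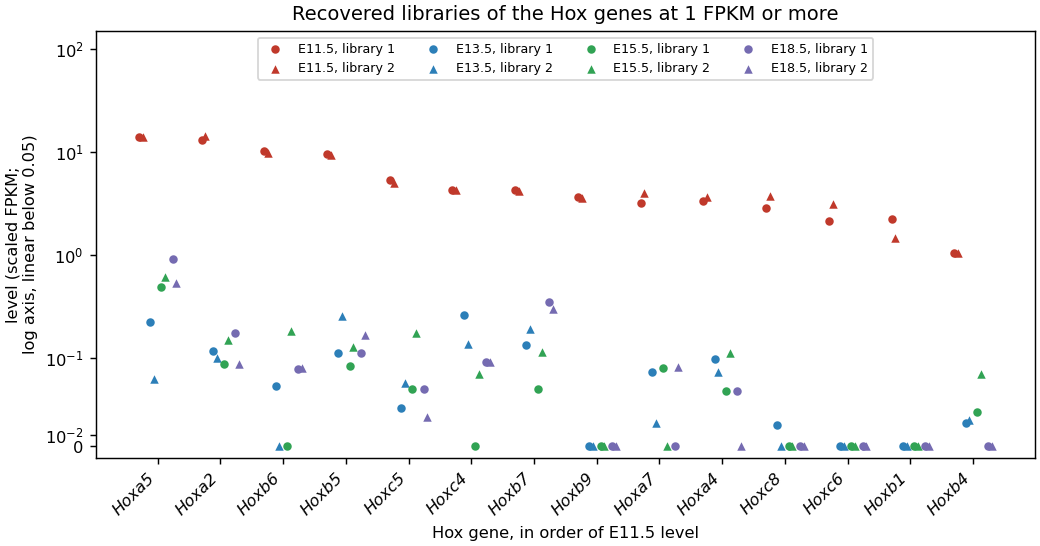
Level (scaled FPKM, log axis that is linear below 0.05) of the 14 Hox genes at 1 FPKM or more, in order of E11.5 level, with circles for library 1 and triangles for library 2 of each stage. The E11.5 libraries of every gene stand above all 6 later libraries, and Hoxb9, Hoxc6 and Hoxb1 are at 0 in all later libraries.

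Between the later stages no Hox gene could pass the rule of size, since the highest later Hox level, 0.728 FPKM, lay under the 5 FPKM it requires. The shares over all genes, 3.64% higher and 1.48% lower at E15.5 than at E13.5, and 6.29% higher and 5.55% lower in the step that followed, therefore give no measure for them. In stage order, 15, 17 and 16 of the 39 genes had reads. Hoxc4 had the highest level at E13.5, with Hoxb5, Hoxb7 and Hoxa5 close to it. Hoxa5 had the highest level at E15.5 and E18.5, and after it the highest later level was that of Hoxb7, 0.329 FPKM at E18.5. The reads of Hoxa5 numbered 8 and 2 in the E13.5 libraries, 12 and 13 in those of E15.5, and 22 and 13 in those of E18.5. This gene rose at E15.5 against E13.5 by 0.45 on the log2 scale (SE 0.122, limma adjusted p = 0.0201), a step at which 28.5% of the 13064 genes rose and 27% fell. That call was lost with no filter on low values (adjusted p = 0.0533), with equal totals, and without E13.5 library 2 or either E15.5 library. Hoxb7 had 1 and 2 reads in the E15.5 libraries and 7 and 6 at E18.5, and rose by 0.30 (SE 0.0689, limma adjusted p = 0.00848, or 0.0267 with no filter), where 38.3% of genes rose and 30% fell. The other 12 tested genes passed at neither step. With so few reads these steps are small beside E11.5: Hoxa5 remained 19.5-fold lower at E18.5 than at E11.5 (interval 13.9 to 28.2) and Hoxb7 12.9-fold lower (7.39 to 24.6).

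Against E11.5, the E18.5 sample had 5 Hox genes lower by size, as at E13.5, and none higher, where 7.55% of genes were lower and 10.4% higher. By limma 14 of 14 tested genes fell, again genes that had entered through E11.5, where 38% of genes fell. With no filter 31 of 33 fell and none rose, where 24.3% of genes fell and 19.9% rose. Here too the 13 genes with reads at E11.5 only could not rise. The median log2 difference over the 39 genes was -0.70. The comparisons share their E11.5 libraries and do not add independent evidence to each other. In stage order, the Hoxa cluster stood at 1.37%, 2.19% and 2.82% of its E11.5 sum, and Hoxb at 1.33%, 1.22% and 2.19%. Hoxc stood at 1.55%, 0.891% and 0.783%, and Hoxd had no reads at E13.5.

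**Figure D5:**
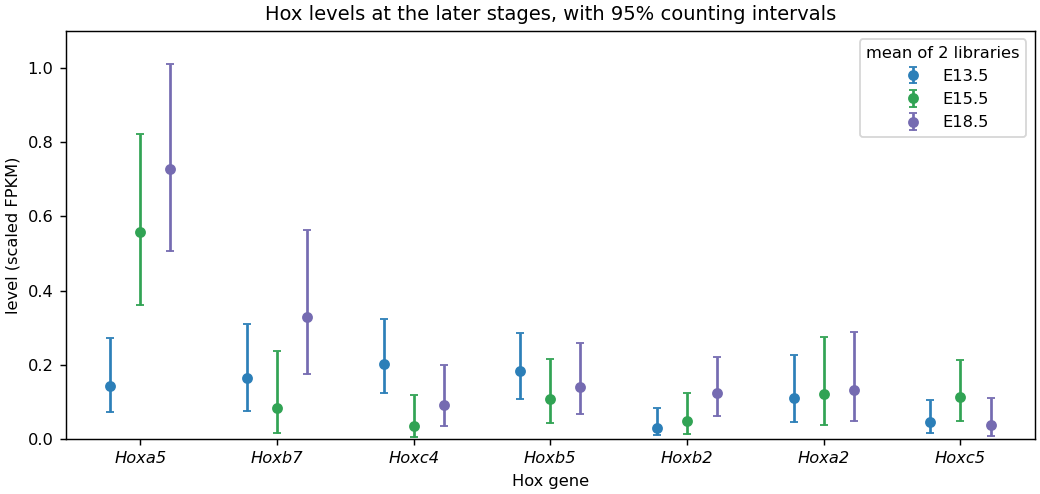
Mean level (scaled FPKM) of 7 Hox genes at the 3 later stages with 95% counting intervals from the reads of the libraries. Hoxa5 is at 0.143, 0.558 and 0.728 FPKM, and Hoxb7 reaches 0.329 at E18.5. The Hoxa5 interval at E13.5 lies below its later ones, and the Hoxc4 interval at E15.5 lies below that at E13.5. All others overlap between stages, those of Hoxb7 included.

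The noncoding transcripts of the clusters were low at E11.5 as well and mostly unread later. Hoxb5os, antisense beside Hoxb5, was at 3.41 ± 0.0569 FPKM at E11.5, from 86 reads, and at 0.0752, 0.112 and 0.112 later, from 2 reads per stage. Hoxaas2 was at 1.22 ± 0.415 FPKM at E11.5 and had 1 read each at the next 2 stages and none at the last. Of 16 such transcripts listed, 3 were tested by limma (Hoxb5os, Hoxaas2 and the microRNA precursor Mir196a-1). All 3 fell at E13.5, where 37.2% of genes fell, but they too entered the test through their E11.5 level alone and so had to be lower later. Mir196a-1 rested on 5 reads. The clusters also hold microRNA genes, and these share seeds (capitals, bases 2 to 8) that differ between the miR-10 and miR-196 families but not within them, as the RefSeq mature sequences (GRCm38.p6) show.
miR-10a-5p: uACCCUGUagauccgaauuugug
miR-10b-5p: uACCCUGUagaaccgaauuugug
miR-196a-5p: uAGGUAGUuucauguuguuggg
miR-196b-5p: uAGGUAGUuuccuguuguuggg
These were printed because miR-196 is known to target Hoxb8 messenger RNA and because the genes of both families lie within the Hox clusters. Mir196b lies in an exon of Hoxa9 on the same strand, so its reads could have been assigned to Hoxa9. The precursors Mir10a, Mir10b, Mir196a-2 and Mir196b had no reads at any stage. RNA-seq libraries of long fragments do not measure mature microRNAs.

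Genes beside the clusters were compared in the same way. Of 13 neighbours outside the clusters, 0 passed the rule of size at E13.5 against E11.5, where 5.73% of genes were lower and 5.77% higher. Neighbours under 5 FPKM at both stages could not pass it, among them Skap2, Snx11, Smug1, Lnpk, Evx1, Evx2 and Ttll6. Of 10 tested by limma 7 fell and 2 rose, where 37.2% of genes fell and 30.9% rose. Mtx2, 60.7 kb from the Hoxd cluster, was at 49.6 FPKM at E11.5 against 45.02 at E13.5, and Cbx5, 155 kb from Hoxc, at 16.3 and 15.47. Hibadh, 285 kb from Hoxa, was at 9.53 and 15.2, Skap2 (143 kb) at 2.34 and 1.78 and Snx10 (565 kb) at 5.28 and 4.18. Snx11 beside Hoxb was at 4.73 and 2.74, Calcoco1 and Smug1 beside Hoxc at 6.68 and 3.54 and at 1.89 and 2.69, and Lnpk beside Hoxd at 4.48 and 1.67. All of these differed by less than 3-fold. Evx1, a homeobox gene 52.6 kb from the 5′ end of Hoxa, had 108 reads (1.04 ± 0.00986 FPKM) at E11.5 and 1, 0 and 0 later. Its relative Evx2, 8.75 kb from Hoxd, had 11 reads (0.0725 FPKM) at E11.5 and none later, at least 3.64-fold lower at E13.5. Ttll6, near Hoxb, went the other way, with 0 reads at E11.5 and 16 (0.111 FPKM) at E13.5. Of the list of ParaHox and Evx genes (8), relatives of the Hox genes outside the clusters, 1 was higher by size at E13.5, the pancreatic Pdx1, and none lower, where 5.77% of genes were higher. The others lay under 5 FPKM at both stages and could not pass. By limma 2 of 3 rose and 1, Evx1, fell, against the same 30.9% and 37.2% of genes. Evx1 entered the test through its E11.5 level alone, and Cdx2, which rose, through its E13.5 level alone. The filter thus fixed the direction of both.

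Among the partners of Hox proteins (9 genes of the Pbx, Meis and Pknox families), 2 were lower by size at E13.5 and none higher, where 5.73% of genes were lower. By limma 5 of 8 fell and 2 rose, where 37.2% of genes fell and 30.9% rose. Meis3, known from the hindbrain, was at 55.9 ± 0.0962 FPKM at E11.5, then 8.53 ± 0.237, 3.84 ± 0.240 and 10.7 ± 0.0877, a 6.56-fold difference at E13.5 (log2 difference -2.58, limma adjusted p = 1.21e-07). Pbx4 was at 6.08, 2.28, 1.11 and 2.27 FPKM. Meis2 was at 5.86, 7.78, 12.1 and 13.03, and so was present at the stages where Hox reads were scarce.

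Retinoic acid is the classic inducer of Hox genes. Of 17 genes for its synthesis, breakdown, transport and receptors, 5 were lower by size at E13.5 and none higher, where 5.73% of genes were lower. By limma 7 of 12 fell and 1 rose, against the same 37.2% and 30.9%. Aldh1a2, the main embryonic enzyme of retinoic acid synthesis, was at 21.99 ± 0.418 FPKM at E11.5 and at 0.599, 0.392 and 0.448 later, 36.7-fold lower at E13.5 (limma adjusted p = 9.78e-07). Like the Hox genes, it entered the test through its E11.5 level alone and so had to be lower later. The degrading enzyme Cyp26a1 was at 37.8 FPKM at E11.5 against 0.0501 at E13.5, and Cyp26c1 at 15.8 and 0. Both enzymes of breakdown are also expressed in the head. The binding proteins Crabp2 and Crabp1 were at 252 and 128 FPKM at E11.5, against 2.33 and 8.86 at E13.5. Other genes of this list were higher at the last 2 stages. Aldh1a1 was at 0.811, 1.13, 10.02 and 5.44 FPKM in stage order, and Dhrs3 at 4.09, 3.98, 12.7 and 9.68. By size, 2 of the 17 genes were higher and 2 lower at E15.5 against E13.5, where 3.64% of genes were higher and 1.48% lower. At E18.5 against E11.5, 2 were higher and 6 lower, where 10.4% of genes were higher and 7.55% lower.

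Trithorax and Polycomb proteins keep Hox clusters on or off. Of 24 such genes, 1 was higher and 1 lower by size at E13.5, and by limma 5 of 22 rose and 10 fell. These counts were near the shares over all genes, which were 5.77% higher and 5.73% lower by size and 30.9% rising and 37.2% falling by limma. Ezh2, the methyltransferase of the Polycomb complex, was at 36.9 ± 0.0190, 17.5 ± 1.47, 17.0 ± 1.498 and 8.01 ± 0.192 FPKM. The chromodomain gene Cbx2 was at 12.4, 6.33, 2.59 and 2.504, while Cbx6 was at 2.06, 7.39, 10.3 and 14.6. The 3.59-fold difference of Cbx6 at E13.5 was the largest among the genes of this list.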

How the data were processed

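RNA-seq of wild-type mouse fetal pancreas was analysed, with 1 sample for each of 4 stages. Per the submitters' processing notes, HISAT2 2.0.5 and mm10 were used. For the counter and the annotation, no name is given in the sources used. The authors deposited FPKM per gene, and per the file headers each value is an average. Symbols and exon lengths came from GENCODE M21, and 54495 of 54532 gene IDs matched.

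Multiplied by exon length, the deposited FPKM of each stage proved to be the sum of whole reads in a pair of libraries. Of the genes above 0 for which a split was attempted, which leaves out those with too many reads or no exon length, 96.3% to 96.5% could be split within 1 printed place, and all 39 Hox genes were. No label states this. The estimated reads per library lay between 1.37e+07 and 1.80e+07. Stages were scaled by median of ratios over the 9884 genes that had 1 FPKM in all stages. The rule of size takes a 2-fold difference of log2(FPKM + 1), a pseudocount that understates the change of low genes, with 5 FPKM reached at either stage. The log2 values of 13064 genes at 1 FPKM in any stage went into limma 3.58.1 under R 4.3.3 (trend, Benjamini-Hochberg adjustment at 0.05). Its p-values measure only the spread between libraries, which may be technical. The split and the fit were tested on simulated data. Folds against 0 reads are lower bounds from 3 reads over both libraries, and 95% exact Poisson and binomial intervals cover counting error only. Some SDs over the 2 libraries lie well below the counting error and overstate the precision.

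The Hox genes and the 17 gene lists were chosen with earlier results of these data known. The Hox genes are named, with values at each stage for those at 1 FPKM or more, except that some genes are not reported here. From each list up to 4 genes with the largest difference past the rule of size, and up to 2 with the highest level, could be named. Noncoding transcripts and neighbours could be named at 1 FPKM. Named outside these rules were the otic genes listed at 0, Evx2, Ttll6, Aldh1a1 and Dhrs3. The same holds for the microRNA precursors without reads and genes that overlap Hox exons. A noncoding gene on another chromosome was removed from the list of cluster transcripts after its values were seen. Other scalings, pseudocounts, minimum levels and left-out libraries were tried. No column of other samples was present.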

Additional observations from a re-analysis of the deposited data

How the results depend on the processing

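No paired analysis was possible because the labels give 1 sample per stage and no replicate numbers. With the minimum level of the rule of size at 1 FPKM, or with no minimum, 14 Hox genes were lower at E13.5 and 14 at E18.5 than at E11.5, in place of 5 and 5. These are the 14 genes at 1 FPKM or more at E11.5, so the larger count follows from the threshold. The shares over all genes at these minimum levels are not given here. With no filter on low values limma found that 31 fell in either comparison, in place of 14. The set tested without the filter holds 13 Hox genes with reads at E11.5 only, which could not rise. At E15.5 against E13.5 the number that rose, 1, was 0 with equal totals and with no filter, and from 0 to 1 when single libraries were left out. The number that fell there, 0, was 1 (Hoxc4) with a pseudocount of 0.1 and with equal totals, and from 0 to 1 without single libraries. At a limit of 0.5 FPKM, 22 Hox genes were counted at E11.5 and 1 each at the last 2 stages. With equal totals the summed Hox level was 116 FPKM at E11.5 and 1.43 at E13.5. The other counts and sums kept their side under every other setting tried.

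Equal totals moved the median log2 difference of all genes to -0.14, -0.41 and 0.15 in the 3 steps from stage to stage, and to -0.46 between the first stage and the last. Under them the limma log2 difference turned to -0.13 for Cbx6, -0.38 for Hibadh and -0.27 for Cbx5 in the step from E13.5 to E15.5, to 0.020 for Hibadh in the step that followed, and to -0.28 for Calcoco1 and -0.12 for Smug1 over the whole span. The cause was not tested. No Hox difference called by limma turned its direction, while the uncalled difference of Hoxa2 at E15.5 against E13.5 did so with equal totals, to -0.05. Depth limits the later stages, where most Hox genes have fewer than 10 reads.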
